A study of Mus musculus with 2 samples.

Results

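Alarmins and antimicrobial peptides were followed by their transcripts in psoriasiform mouse skin. The 10 genes were taken by symbol: the alarmins *S100a8*, *S100a9* and *S100a7a*, the siderophore-binding *Lcn2*, the granule genes *Camp*, *Ngp* and *Ltf*, and the beta-defensins *Defb3*, *Defb4* and *Defb14*. They are 10 of the 31053 gene identifiers (31017 symbols) counted in each library, and all 10 were found by symbol in both. Levels were described in keratinocyte states, in neutrophils and in the other cells, whose counts give the level that free RNA can bring.

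The series holds 2 droplet-based single-cell 3′ RNA libraries, 1 of dermis and 1 of epidermis, both from wild type C57BL/6 mice. Mice were 10 weeks old according to the labels (the methods of the study give a younger age), and received imiquimod (IMQ), a Toll-like receptor agonist that induces psoriasis-like inflammation, for 5 days. The labels place the treatment on the ear and name live cells for either layer, whereas the methods of the study give a sort of live CD45+ cells, that is of leukocytes, for the dermis. Both libraries come from IMQ-treated skin, so no untreated level is at hand. With 1 library per layer, no test between animals could be made, and the number of pooled animals is not given in the sources used here.

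S100A8 and S100A9 are small calcium-binding proteins that pair into calprotectin, which withholds zinc and manganese from microbes and acts as a danger signal when it leaves the cell. Neutrophils keep much of it in their cytoplasm, and keratinocytes make it when skin is inflamed or wounded. Lipocalin 2, lactoferrin, cathelicidin and the neutrophilic granule protein belong to the specific granules that neutrophils fill while they mature in the bone marrow, and beta-defensins are cationic peptides of epithelia. T cell cytokines of the type 17 response raise several of these genes in keratinocytes, which makes them well-known readouts of psoriasiform skin.

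Cells with at least 200 genes and at most 10% mitochondrial molecular barcodes (UMIs, 1 for each transcript captured) were kept, 4747 of 5376 in the dermis and 4173 of 5258 in the epidermis. The median depth of the kept cells was 7010 UMIs in the dermis and 25918 in the epidermis, and 45 barcodes occurred in both libraries. Each library was clustered without the 10 genes and without related S100 and antimicrobial genes, and a cluster was called after a cell type ("-like") when at least 3 of its marker genes stood out. The dermis gave 746 neutrophil-like cells in 2 clusters, 1100 macrophage-like, 921 monocyte-like, 416 fibroblast-like and 359 T cell-like cells among others, and the epidermis 3008 keratinocyte-like cells in 9 clusters, 517 T cell-like and 38 neutrophil-like cells. Levels are UMIs per 1000000 UMIs of the class (CPM), not adjusted for transcript length since 3′ ends were counted, and all 95% intervals cover counting error only.

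In the GENCODE M21 annotation of GRCm38 (mm10), *S100a8* lies at chr3:90668978-90670035 on the plus strand and *S100a9* at chr3:90692632-90695721 on the minus strand, 22596 bases apart. *S100a7a* (chr3:90654017-90658669) lies 10308 bases before *S100a8*. The granule genes share chromosome 9, with *Camp* at chr9:109847379-109849617, *Ngp* at chr9:110419747-110423012 and *Ltf* at chr9:111019271-111042767, and the defensins share chromosome 8, with *Defb14* at chr8:19194357-19195212, *Defb4* at chr8:19198706-19201545 and *Defb3* at chr8:19293360-19295291. *Lcn2* lies alone at chr2:32384633-32388252. The paired alarmins and the granule genes were read together in neutrophils, but *Camp* had no C/EBP-type match and is not shown. The sequences before the gene starts of both alarmins and of *Ngp* and *Ltf*, the granule genes with such a match, are given. They were taken from RefSeq (GRCm38.p6), are given 5′ to 3′ in the direction of the gene and end before the gene start in both annotations. They cover chr3:90668821-90668977 (plus strand) for *S100a8*, chr3:90695722-90695971 (minus strand) for *S100a9*, chr9:110419558-110419746 (plus strand) for *Ngp* and chr9:111019042-111019270 (plus strand) for *Ltf*. Capitals mark matches, on either strand, to TTGCNNAA, a pattern of the kind bound by C/EBP factors, which act in myeloid cells and keratinocytes.
S100a8: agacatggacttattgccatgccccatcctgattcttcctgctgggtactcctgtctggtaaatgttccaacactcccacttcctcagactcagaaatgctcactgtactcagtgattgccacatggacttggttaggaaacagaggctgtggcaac
S100a9: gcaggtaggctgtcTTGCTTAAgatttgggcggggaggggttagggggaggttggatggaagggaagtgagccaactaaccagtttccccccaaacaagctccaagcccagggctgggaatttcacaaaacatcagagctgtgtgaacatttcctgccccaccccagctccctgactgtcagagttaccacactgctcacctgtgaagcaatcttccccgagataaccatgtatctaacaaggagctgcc
Ngp: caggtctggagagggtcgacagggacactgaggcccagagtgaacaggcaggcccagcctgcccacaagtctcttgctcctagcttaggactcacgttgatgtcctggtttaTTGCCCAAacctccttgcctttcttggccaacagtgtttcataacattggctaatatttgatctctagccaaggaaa
Ltf: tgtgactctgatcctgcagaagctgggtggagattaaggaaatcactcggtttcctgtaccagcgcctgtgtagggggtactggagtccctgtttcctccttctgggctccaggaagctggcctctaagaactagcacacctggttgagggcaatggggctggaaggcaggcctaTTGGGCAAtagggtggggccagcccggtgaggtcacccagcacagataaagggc

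RefSeq held 250 bases before the start of 8 of the 10 genes (not *Defb4* or *Defb14*). TTGCNNAA was found on either strand in 5 of these 8, namely *Lcn2*, *S100a9*, *Defb3*, *Ngp* and *Ltf*, and in 9.56% of all 32851 RefSeq promoters of this length. In *S100a9* the match began 236 bases before the RefSeq start, in *Ngp* 138 bases and again 11 bases before it, and in *Ltf* 75 bases before it. The second *Ngp* match lies past the end of the printed sequence and is not marked there. The NF-kB-type pattern GGGNNNNNCC was found in 4 of the 8 against 45.8% of all promoters, the STAT-type pattern TTCNNNGAA in 1 (*S100a7a*) against 7.02%, and the AP-1-type pattern TGANTCA in 0 against 6.75%. Each match describes letters of the window only.

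Neutrophil-like cells carried the highest *S100a8* and *S100a9* levels of the named classes in each layer. *S100a8* stood at 67485 CPM in dermal neutrophil-like cells (67228 to 67742; 265836 UMIs, found in 745 of 746 cells) and at 62916 CPM in the 38 epidermal neutrophil-like cells (61361 to 64501; 6210 UMIs). Keratinocyte-like cells held 14206 CPM (14182 to 14229; 1429889 UMIs, found in all 3008 cells). The dermal neutrophil level was 4.75 times (4.73 to 4.77) and the epidermal one 4.43 times (4.32 to 4.54) that of keratinocyte-like cells. The epidermal neutrophil-like cells also held *Krt14*, the basal keratin, at 42.6% of the keratinocyte level, and the part of that RNA in their alarmin level was not tested.

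*S100a9*, the partner subunit, stood at 60115 CPM in dermal and 65277 CPM in epidermal neutrophil-like cells and at 16758 CPM in keratinocyte-like cells, a ratio of 3.59 and 3.90. *Lcn2*, which binds bacterial siderophores, stood at 2403 CPM and 2492 CPM in the neutrophil-like cells and at 632 CPM in keratinocyte-like cells, a ratio of 3.803 (3.72 to 3.89) and 3.95. All 3 genes were higher in neutrophil-like cells, relative to all UMIs of the class. In UMIs per cell, not adjusted for depth, the order was the reverse. The median keratinocyte-like cell held 400.5 UMIs of *S100a8*, 458 of *S100a9* and 16 of *Lcn2*. The median dermal neutrophil-like cell held 243.5, 228 and 5, and the epidermal one 118, 139 and 3. Most epidermal UMIs of these genes also lay in keratinocyte-like cells, which were more numerous and deeper. These cells held 98.1% of the *S100a8*, 98.3% of the *S100a9* and 98.6% of the *Lcn2* UMIs of the epidermal library. In the dermal library neutrophil-like cells held 75.6% of the *S100a8* and 76.7% of the *S100a9* UMIs but 51.3% of the *Lcn2* UMIs. *S100a8* and *S100a9* together made up 1.64% of all UMIs in the dermis and 3.02% in the epidermis.

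**Figure D1:**
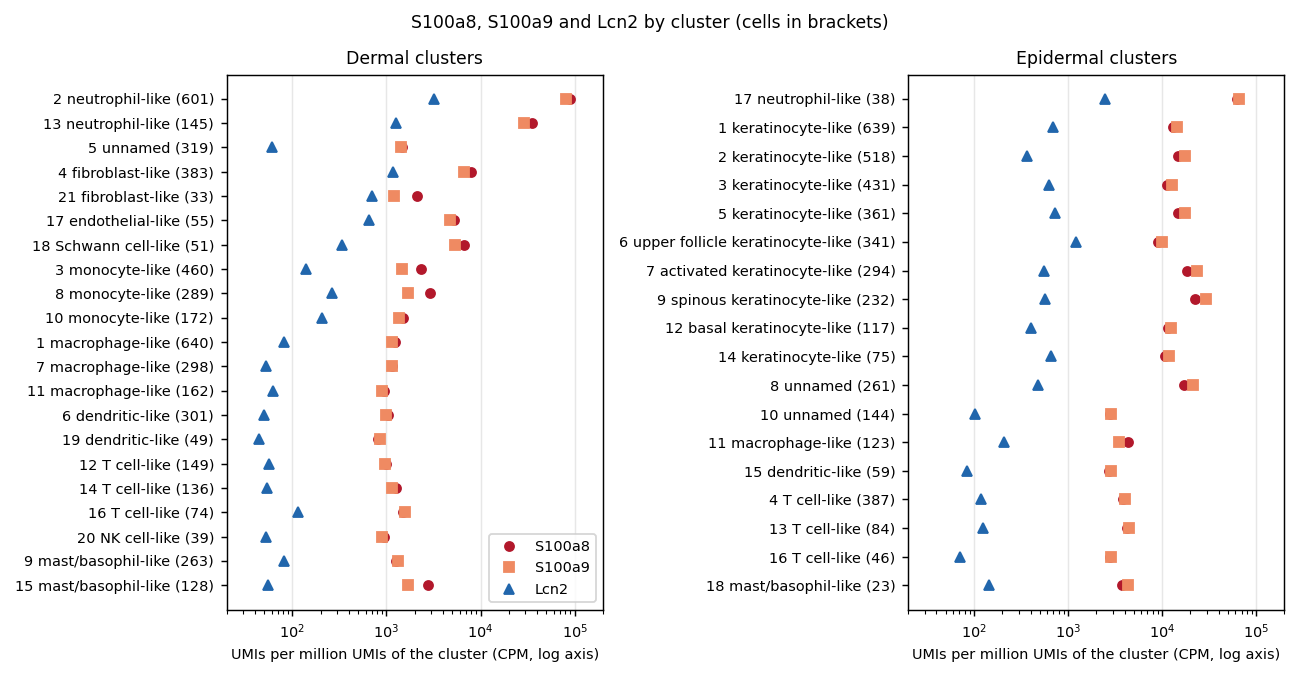
Levels of *S100a8* (red circles), *S100a9* (orange squares) and *Lcn2* (blue triangles) in each cluster of the dermal (left) and epidermal (right) library, in CPM on a log axis, with the number of cells in brackets. Neutrophil-like clusters lie farthest right in both panels, the keratinocyte-like clusters form a block between 9138 and 22459 CPM of *S100a8*, and *Lcn2* in fibroblast-like cluster 4 (1181 CPM) lies close to the deeper neutrophil-like cluster 13 (1253 CPM).

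Single cells spread widely around these sums. Among dermal neutrophil-like cells the median cell held 66023 CPM of *S100a8*, with a 10th percentile of 14132 and a 90th percentile of 139453, and among keratinocyte-like cells 12465 CPM, with 5542 and 24721. The spreads overlapped, since the 10th percentile of the neutrophils lay under the 90th percentile of the keratinocytes. The dermal neutrophils fell into a cluster of 601 cells with 89709 CPM of *S100a8* and a cluster of 145 deeper cells (median 11098 against 3277 UMIs) with 35195 CPM. The deeper cluster also held more *Lyz2*, the myeloid lysozyme (8517 against 2017 CPM), more *C1qa*, a complement gene of macrophages (271 against 96.9 CPM), and 25.5% of its cells were among the highest doublet scores against 0.998%. Without it, a choice made after seeing the data, the ratio of neutrophil-like to keratinocyte-like *S100a8* was 6.32. *Lcn2* differed in the same direction, with 3194 CPM in the larger cluster and 1253 CPM in the deeper one.

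All keratinocyte states stayed below both dermal neutrophil-like clusters in *S100a8*, whereas *S100a9* in the spinous-like cluster (29645 CPM) was slightly above the deeper neutrophil-like cluster (28763 CPM). *S100a8* was highest in the spinous-like cluster, which expressed the suprabasal keratins *Krt1* and *Krt10* (22459 CPM). It was followed by the activated-like cluster led by *Krt16* and *Krt6b*, keratins of wounded and psoriatic epidermis (18261 CPM). The spinous-like cluster also carried activated markers (*Krt6b*, *Krt16*, *Sprr1b*, *Sprr2d* and *Sprr2h*), so its levels cannot be assigned to the spinous state apart from activation. An *Il24*-led and a *Tslp*-led cluster followed at 14899 and 14859 CPM, whose intervals overlapped, then a histone-led one at 13057 CPM. The *Tslp*-led cluster was also led by *Ung*, *Cdt1*, *Dtl*, *Uhrf1*, *Hells* and *Exo1*, which are not on the cycling list. The histone-led cluster carried the cycling markers *Top2a* and *Cenpf*, fewer than the 3 needed for a state. The basal-like cluster (*Col17a1*, *Itga6*, *Itgb4*) held 11625 CPM, a *Krt15*-led cluster 11341 CPM, an *Atf3*-led cluster 10826 CPM, and the upper follicle-like cluster (*Krt79*, *Krt17*) 9138 CPM. No cluster carried enough granular-layer markers for that name, so the outermost living layer has no level of its own here. The basal-like cluster also carried the cycling markers *Mki67*, *Top2a* and *Cenpf*. It was shallower than the other keratinocyte-like clusters (median 13547 UMIs against 24165 to 48004.5), and the part of cycling or depth in its levels was not tested. It held 117 of the 3008 keratinocyte-like cells. The 2024 cells of clusters without a state, which had *Krt5* and *Krt14* among their markers, held 13647 CPM of *S100a8*. Ratios and gene counts against the basal-like cluster therefore describe that cluster, not all basal keratinocytes.

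Relative to all other keratinocyte-like cells, the spinous-like cluster held 1.64 times the *S100a8* and 1.86 times the *S100a9*, and relative to the basal-like cluster 1.93 times (1.90 to 1.96) and 2.36 times (2.33 to 2.40). *S100a9* ran from 29645 CPM in the spinous-like cluster and 23651 CPM in the activated-like cluster to 10084 CPM in the follicle-like one. *Lcn2* did not follow this order. It was highest in the upper follicle-like cluster (1227 CPM), at 2.16 times (2.12 to 2.21) the level of the other keratinocyte-like cells, where *S100a8* was 0.619 times and *S100a9* 0.577 times the level of the others. In the spinous-like cluster *Lcn2* stood at 565 CPM, 0.888 times the others, in the activated-like cluster at 558 CPM, in the basal-like cluster at 408 CPM and in the *Il24*-led cluster at 367 CPM. *Lcn2* was found in 320 of the 341 follicle-like cells (93.8%), against 98.3% of all keratinocyte-like cells. Its 10th percentile, median and 90th percentile were 86.7, 677 and 2993 CPM in the follicle-like cluster. Over all keratinocyte-like cells they were 135, 536 and 1194 CPM, so the difference lay mostly in the upper tail.

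**Figure D2:**
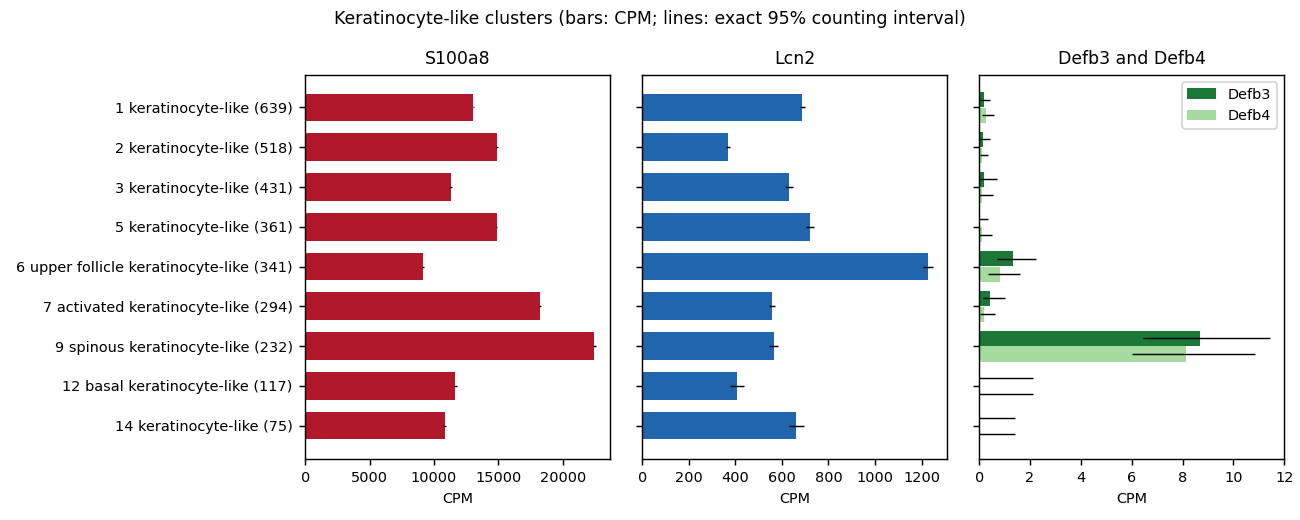
Levels of *S100a8*, *Lcn2*, *Defb3* and *Defb4* in the 9 keratinocyte-like clusters of the epidermis (bars, CPM; lines, exact 95% counting interval; cells in brackets). *S100a8* and both defensins are highest in the spinous-like cluster 9, whereas *Lcn2* is highest in the upper follicle-like cluster 6.

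The alarmins were also read against differentiation without clusters, by the percentage that *Krt1* and *Krt10* took of the *Krt1*, *Krt10*, *Krt5* and *Krt14* UMIs of each keratinocyte-like cell, in bins chosen after seeing the data. *Krt1* and *Krt10* were also among the markers that named the spinous-like cluster, so the bins are not an independent reading. *S100a8* stood at 13560 CPM in the 2111 cells under 1%, at 14216 CPM in 533 cells from 1% to 3%, at 16786 CPM in 148 cells from 3% to 10% and at 20873 CPM in 216 cells above 10%. *S100a9* stood at 15798, 16479, 21584 and 26726 CPM in the same bins. Both alarmins were higher in each step toward suprabasal keratins, and *Krt16* was higher with them, at 492, 901, 2174 and 3402 CPM. *Krt6a*, a further keratin of wounded epidermis, showed no such order, at 1366, 1218, 1530 and 1152 CPM. *Lcn2* was highest in the second bin, with 589, 882, 608 and 542 CPM. The bins cut a range, and 472, 82 and 40 cells lay within 20% of the cuts at 1%, 3% and 10%.

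The beta-defensins were rare, and UMIs of *Defb3* and *Defb4* lay mostly in the spinous-like cells. *Defb3* had 78 UMIs in 43 of the 3008 keratinocyte-like cells and *Defb4* 68 UMIs in 33 cells, of which 50 UMIs (19 of 232 cells) and 47 UMIs (17 cells) were in the spinous-like cluster. This cluster thereby held 66.4% (58.2% to 74.0%) of the UMIs of both genes, at 8.67 CPM of *Defb3* and 8.15 CPM of *Defb4*. These levels were 29.4 times (18.1 to 48.5) and 36.8 times (21.6 to 64.9) those of the other keratinocyte-like cells. The richest 5 of the 232 cells held 62% of the *Defb3* and 57.4% of the *Defb4* UMIs of this cluster, and the intervals take UMIs as independent. The upper follicle-like cluster came next with 13 UMIs of *Defb3* and 8 of *Defb4*, and the basal-like cluster had 0 of either. The richest single cell held 10 of the *Defb3* UMIs and 7 of the *Defb4* UMIs.

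*Defb14* had 7 UMIs in keratinocyte-like cells, of which 4 were in the follicle-like, 2 in the spinous-like and 1 in the activated-like cluster. All 3 defensins had 0 UMIs in the 4747 dermal cells, and a count of 0 allows up to 3 UMIs. In the 517 epidermal T cell-like cells, which should lack these genes, *Defb3* had 1 UMI and *Defb4* 1 UMI. *S100a7a*, the mouse relative of psoriasin, had 57 UMIs in keratinocyte-like cells and 5 in the whole dermal library. The *Il24*-led cluster held 32 of the 57 UMIs, in 25 of its 518 cells, and the spinous-like cluster 10, at 1.29 and 1.73 CPM. At such counts no order among the remaining clusters can be read.

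In the dermis most UMIs of the granule genes lay in neutrophil-like cells, but few of these cells carried them. *Ngp*, the neutrophilic granule protein, had 2424 UMIs in dermal neutrophil-like cells (86.0% of its UMIs in the dermis), found in 173 of 746 cells (23.2%, and 11.4% after each cell was thinned to 1000 UMIs). *Camp*, the precursor of the cathelicidin peptide, had 451 UMIs in 41 cells (5.50%, and 2.11% after thinning). *Ltf*, the iron-binding lactoferrin, had 291 UMIs in 28 cells (3.75%, and 1.55% after thinning). In T cell-like cells, which should lack *Ngp*, it was found in 6.13% of 359 cells and in 0.862% after thinning, at a median depth of 6168 UMIs against 3833 in the neutrophils. The deeper fibroblast-like cells (median 10164.5 UMIs) had *Ngp* in 10.8%, *Camp* in 6.73% and *Ltf* in 1.44% of cells. After thinning these shares were 2.28%, 0.254% and 0.508%. *Ngp* was also found in 12.8% of 39 NK cell-like and 12.7% of 55 endothelial-like cells (0% and 1.96% after thinning). *Ltf* was found in 2.57% of dermal dendritic-like cells (0% after thinning). Keratinocyte-like cells had 2 UMIs of *Ngp*, 2 of *Camp* and 0 of *Ltf*. The 38 epidermal neutrophil-like cells had 24 UMIs of *Ngp* in 8 cells and 0 of *Camp* and *Ltf*, at a median depth of 2071 UMIs.

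A handful of cells held most of these transcripts. The 10 richest dermal neutrophil-like cells for each gene held 63.5% of the *Ngp*, 86.5% of the *Camp* and 90.4% of the *Ltf* UMIs of the class, against 13.4% for *Lcn2* and 7.18% for *S100a8*, where 10 cells are 1.34% of the class. The same cells were rich in all 3: the 10 cells richest in *Ngp* held 82.9% of the *Camp* and 81.4% of the *Ltf* UMIs. Each of the 10 had a *Camp* UMI and 9 had a *Ltf* UMI. Over the class, 32 of the 41 *Camp* cells (78.0%) had *Ngp*, which is 18.5% of the 173 *Ngp* cells, and 16 cells had all 3 genes.

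In the 10 cells richest in *Ngp*, *Ngp* stood at 10561 CPM, *Camp* at 2565 CPM and *Ltf* at 1625 CPM, against 233, 20.3 and 14.2 CPM in the other 736. These cells were picked by *Ngp*, so its own level is a description of the choice. They also held *Lcn2* at 7304 against 2214 CPM, *S100a8* at 111555 against 65791 CPM and *Pglyrp1*, a peptidoglycan-binding granule gene, at 2345 against 909 CPM. *Il1b*, the inflammatory cytokine of activated neutrophils, stood at 1858 against 5961 CPM. *Mpo* and *Elane*, genes of the primary granules made at an earlier stage, had 0 UMIs in both sets. Not all such genes were absent, since *Prtn3* had 110 UMIs (27.9 CPM) and *Ctsg* 4 UMIs over all dermal neutrophil-like cells. Their split between the sets was not read. The cell cycle gene *Top2a* had 0 and 12 UMIs. The 10 cells were deep (median 13210.5 against 3786 UMIs), and the part of depth in these differences was not tested.

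**Figure D3:**
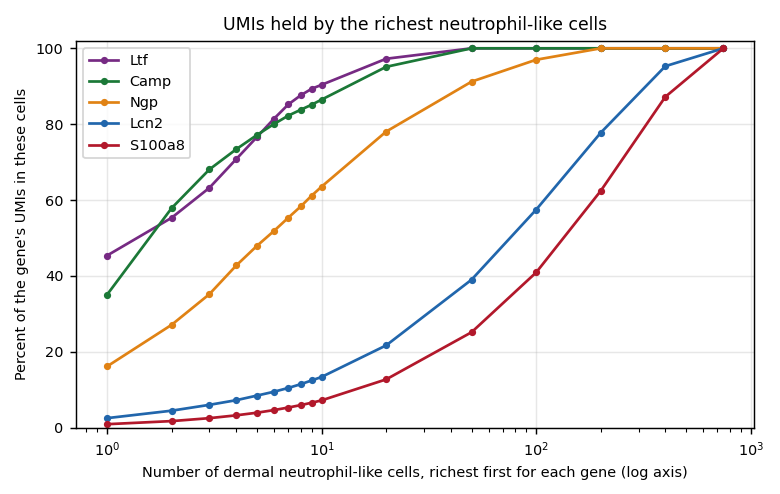
Cumulative percentage of the UMIs of each gene held by the richest of the 746 dermal neutrophil-like cells, ranked for each gene (number of cells on a log axis). The curves of *Ltf*, *Camp* and *Ngp* are already at 90.4%, 86.5% and 63.5% with 10 cells, whereas *Lcn2* and *S100a8* are at 13.4% and 7.18%.

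Every cell class of both layers held alarmin transcripts, so a UMI in a cell did not by itself mark a producing cell. In the dermis *S100a8* was found in 96.7% of T cell-like cells (61.8% after thinning to 1000 UMIs), at 1118 CPM. This is 1.66% (1.60% to 1.71%) of the neutrophil level, and *Retnlg*, a neutrophil gene outside the 10, stood at 1.57% (1.44% to 1.71%) of its own neutrophil level in the same cells. T cells should lack both genes. Of the 359 cells, 5 with at least 10 *Retnlg* UMIs held 755 of the 3483 *S100a8* UMIs, at 5966 CPM. The median T cell-like cell held 858 CPM of *S100a8*, so the level of the class and both percentages are raised by these few cells. Other dermal immune classes apart from monocytes ran from 951 CPM in NK cell-like to 1450 CPM in mast cell- or basophil-like cells, where 2 of the 391 cells held 273 of the 1936 *S100a8* UMIs.

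In the epidermis the level in T cell-like cells, which should lack the gene, was higher than in the dermis. T cell-like cells held 3698 CPM of *S100a8* (26.0% of the keratinocyte level) and had a UMI in 99.8% of cells, or in 98.0% after thinning, at a median depth of 2342 against 32752 UMIs in keratinocytes. Keratinocyte markers stood between 18.5% and 30.1% of the keratinocyte level in the same cells, with *Krt14* at 23.4%. *S100a9* stood at 23.1% and *Lcn2* at 17.2%. Dendritic-like cells held 19.2% of the keratinocyte level of *S100a8* beside 17.7% of *Krt14*. Macrophage-like cells held 31.0% (4398 CPM) and 32.9% of *Lcn2*, beside 19.9% of *Krt14* and keratinocyte markers between 14.95% and 28.6%. *S100a9* stood at 3525 CPM in them, against 16758 CPM in keratinocyte-like cells. The richest 5 of the 123 macrophage-like cells held 18.0% of the *S100a8* and 34.4% of the *Lcn2* UMIs. An unnamed cluster of 261 shallow cells (median 966 UMIs) held 16995 CPM. No cell type marker stood out in it, so its level is not read as free RNA.

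Monocyte-like cells of the dermis held *S100a8* above the level of *Retnlg*. It stood at 2414 CPM, 3.58% (3.52% to 3.63%) of the neutrophil level, whereas *Retnlg* stood at 1.62% and *Ly6g*, a neutrophil surface marker, at 1.15%. The median monocyte-like cell held 1198 CPM of *S100a8*, so the class level is raised by part of the cells. The median cell held 1007 CPM among macrophage-like cells and 1176 CPM in the unnamed dermal cluster. *Mmp8* and *Clec4d*, also on the neutrophil list, stood at 29.5% and 27.4%. In the 332 monocyte-like cells without any *Retnlg* UMI (a split chosen after seeing the data), *S100a8* stood at 2341 CPM, 2.73 times (2.51 to 2.98) that of T cell-like cells without *Retnlg*, *S100a9* at 1353 CPM (1.49 times) and *Lcn2* at 171 CPM (3.35 times). The richest 5 of these cells held 31.2% of the *S100a8* UMIs. Monocyte-like cluster 8, led by *Thbs1* and *Ly6c2*, held the most (2936 CPM), then cluster 3 (2344 CPM) and the *Ace*-led cluster 10 (1509 CPM). In cluster 8 the richest 5 of the 86 cells without *Retnlg* held 53.9% of their *S100a8* UMIs.

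The share of *S100a8* in the UMIs of the pair differed between neutrophil-like, keratinocyte-like and monocyte-like cells beyond counting error. It was 52.9% (52.7% to 53.0%) in dermal neutrophil-like cells, 45.9% (45.8% to 45.9%) in keratinocyte-like cells and 61.2% (60.6% to 61.7%) in dermal monocyte-like cells. Within the monocytes it was 63.7% in cluster 8, 61.4% in cluster 3 and 52.4% in cluster 10. Without the cells of highest doublet score, which redrew the clusters, the monocyte share was 58.5%. Dermal T cell-like and macrophage-like cells stood at 50.9% and 51.0%, close to but under the neutrophils. Among keratinocyte states the share was lowest in the spinous-like (43.1%) and activated-like (43.6%) clusters, the ones with the highest level. It was 48.1% (47.6% to 48.6%) in the basal-like cluster, an interval that overlapped those of other clusters. Epidermal neutrophil-like cells stood at 49.1%, T cell-like cells at 48.9% and macrophage-like cells at 55.5%. The shallow mast cell-like cluster 15 (62.4%) and the small fibroblast-like cluster 21 (63.6%) rest on 461 and 1120 UMIs of *S100a8*.

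**Figure D4:**
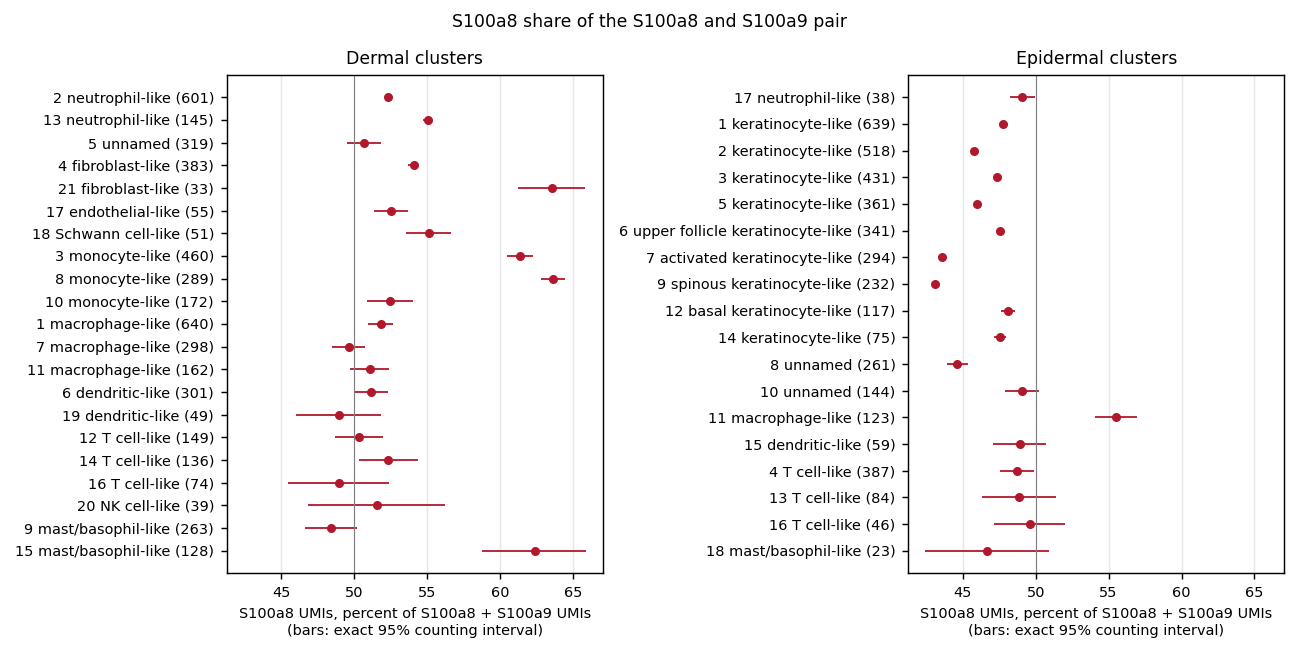
*S100a8* UMIs as a percentage of the *S100a8* and *S100a9* UMIs of each cluster (points; bars, exact 95% counting interval; cells in brackets), dermis left and epidermis right. Monocyte-like clusters 3 and 8 lie at 61.4% and 63.7%, neutrophil-like clusters at 52.3% and 55.0%, and keratinocyte-like clusters between 43.1% and 48.1%.

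Fibroblast-like cells of the dermis, which came through a sort described as one of leukocytes, held 29.8% of the *Lcn2* UMIs of the library. *Lcn2* stood at 1129 CPM, 47.0% (45.4% to 48.6%) of the neutrophil level, whereas *S100a8* stood at 7304 CPM, 10.8%, *S100a9* at 10.2% and *Retnlg* at 10.2%. *S100a8* lay in few of these cells: the 52 of 416 cells with at least 10 *Retnlg* UMIs held 83.5% of the *S100a8* UMIs (34598 CPM) but 21.8% of the *Lcn2* UMIs. Of these 52 cells 17.3% were among the highest doublet scores, against 8.52% of the other fibroblast-like cells and 3.79% of all dermal cells.

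In the 122 fibroblast-like cells without a *Retnlg* UMI, *S100a8* stood at 1056 CPM, 1.23 times (1.11 to 1.37) the level of T cell-like cells without *Retnlg*, and *Lcn2* at 797 CPM, 15.7 times (11.2 to 22.6). *Lcn2* was found in 64 of the 122 cells, and the richest 5 held 53.2% of its UMIs. In both fibroblast-like clusters *Lcn2* was above the background of T cells, at 1181 CPM in the large cluster led by *Coch* and *Tnc* and at 705 CPM in the small one. Endothelial-like cells held *Lcn2* unevenly. The 22 shallow cells without *Retnlg* (median 2104.5 UMIs) held it at 1770 CPM in 9 cells, of which 5 held 85.5%, and *S100a8* at 801 CPM. The 27 cells with 1 to 9 *Retnlg* UMIs (median 16568 UMIs) held *Lcn2* at 177 CPM (142 to 217). Fibroblast-like cells with 1 to 9 *Retnlg* UMIs held it at 1142 CPM. In Schwann cell-like cells without *Retnlg*, *Lcn2* stood at 73.9 CPM, 1.45 times (0.615 to 3.07) the T cell level.

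**Figure D5:**
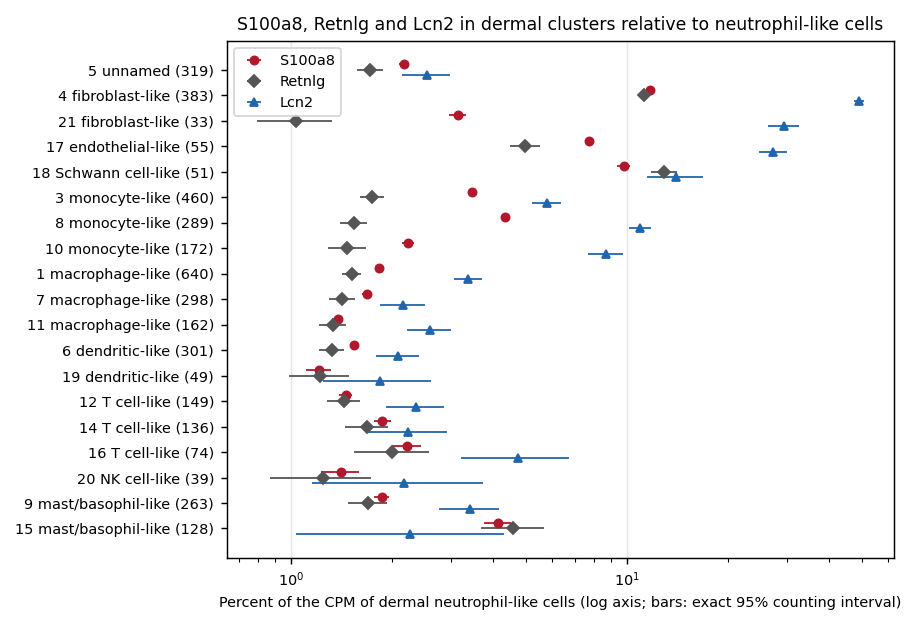
*S100a8* (red), *Retnlg* (grey) and *Lcn2* (blue) in each dermal cluster as a percentage of the CPM of dermal neutrophil-like cells (log axis; bars, exact 95% counting interval; cells in brackets). In most lymphoid and macrophage-like clusters *S100a8* and *Retnlg* lie together near 1% to 2%, in monocyte-like clusters 3 and 8 *S100a8* lies to the right of *Retnlg*, and in fibroblast-like clusters *Lcn2* lies far to the right of both.

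Profiles over the clusters are given as a description. Over the 21 dermal clusters, which share a library and its free RNA, the log2(CPM + 1) of *S100a8* was most like that of *S100a9* (Pearson r = 0.99), followed by *Retnlg* (0.96), *Asprv1* (0.96), *Ly6g* (0.93) and *Stfa1* (0.93). For *Camp* the nearest gene was *Ngp* (0.86), and for *Ngp* and *Ltf* it was *Asprv1* (0.91 and 0.83). *Lcn2* was most like *G0s2* (0.91), then *S100a8* (0.89), *Igfbp6* (0.88), *S100a9* (0.86) and *Lrg1* (0.84). Over the 18 epidermal clusters *S100a8* was most like *S100a9* (0.99), *Ccdc113* (0.94), *Il1f6* (0.93), an IL-1 family gene of the epidermis, *Lcn2* (0.91) and *Ankrd22* (0.90), and *Lcn2* was most like *Ccdc113* (0.92) and *Exph5* (0.91).

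Between dermal neutrophil-like and epidermal keratinocyte-like cells, 19.6% of the 12174 genes with at least 50 UMIs were at least 2-fold higher and 45.9% at least 2-fold lower. Of the 10 genes, 9 had 50 UMIs, 6 were higher (*S100a8*, *S100a9*, *Lcn2*, *Camp*, *Ngp* and *Ltf*) and 0 lower, with a median log2 ratio of 1.93 against -0.81 over all genes. *Camp*, *Ngp* and *Ltf* reached 50 UMIs through the neutrophils alone and had to differ. *S100a7a*, *Defb3* and *Defb4* reached it through the keratinocytes alone, so nothing is read from the count or the median. Only *S100a8*, *S100a9* and *Lcn2* reached it in both groups. Both groups also differ in library, depth and layer, which cannot be told apart here. *Defb3* and *Defb4* were at 0 UMIs in neutrophils, where the limit of 3 UMIs is about as high as their level in all keratinocyte-like cells, so neither could be called lower.

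Of 9 other S100 genes, 2 were higher (*S100a11*, 6069 against 1307 CPM, and *S100a4*, 1537 against 91.3 CPM) and 3 lower. Among the lower ones were *S100a16* (8.38 against 722 CPM) and *S100a14* (0 UMIs in neutrophils, 973-fold lower with the 0 set to the limit of 3 UMIs). The lower ones, *S100a14*, *S100a16* and *S100a3*, reached 50 UMIs through the keratinocytes alone, and nothing is read from these counts beside the 19.6% and 45.9% over all genes. *S100a6* stood at 6967 against 5006 CPM and *S100a10* at 602 against 1050 CPM. Of 13 other antimicrobial genes 9 were higher and 4 lower. Among these *Lyz1*, *Prtn3*, *Hp*, *Ang*, *Defb1* and *Defb6* reached 50 UMIs in only 1 of the groups, so nothing is read from the count. The protease inhibitors *Wfdc17* (10787 against 5.13 CPM) and *Slpi* (3649 against 37.3 CPM) and the lysozyme *Lyz2* (4667 against 7.47 CPM) led the neutrophils. The ribonucleases *Rnase4* (42.9 against 115 CPM) and *Ang* (7.62 against 32.0 CPM) and the beta-defensins *Defb1* and *Defb6* (107 and 75.6 CPM, with 0 UMIs in neutrophils) were on the keratinocyte side. *Bpi* and *Mpo* had 0 UMIs in both.

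Of 6 receptors and binding partners 4 were higher in neutrophils and 2 lower. The formyl peptide receptors *Fpr2* (414 against 0.238 CPM) and *Fpr1* (380 against 0.119 CPM) and the lipopolysaccharide receptor *Tlr4* (103 UMIs against 0) were higher, as was *Lrp1* (45.2 against 6.06 CPM), whereas *Bsg*, a binding partner of S100A9, stood at 174 against 456 CPM and *Slc22a17*, a receptor of lipocalin 2, at 0.254 against 1.41 CPM. *Fpr1*, *Fpr2* and *Tlr4* reached 50 UMIs through the neutrophils alone and *Slc22a17* through the keratinocytes alone, so nothing is read from the counts of receptors. *Lrp2* had 0 UMIs. Of 11 regulators 7 were higher and 2 lower, beside 19.6% and 45.9% over all genes. The lower ones, *Il17rc* and *Traf3ip2*, reached 50 UMIs through the keratinocytes alone, so nothing is read from the count of lower regulators. *Cebpb*, a C/EBP factor, stood at 3443 against 131 CPM, *Spi1*, the myeloid factor of the ETS family, at 738 against 3.31 CPM, and *Nfkbiz*, an NF-kB cofactor, at 386 against 25.0 CPM. *Stat3* stood at 139 against 63.3 CPM. The interleukin receptor subunit *Il17rc* had 0 UMIs in neutrophils and 66.0 CPM in keratinocytes, 86.7-fold lower with the 0 set to the limit of 3 UMIs.

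Between spinous-like and basal-like keratinocytes, 4.09% of 7334 genes were at least 2-fold higher and 33.4% at least 2-fold lower. The basal-like cluster also carried cycling markers and was shallower, which cannot be told apart from its basal state here. Of the 10 genes 4 had 50 UMIs, 2 were higher (*S100a9*, and *Defb3* 5.00-fold with the 0 set to the limit of 3 UMIs) and 0 lower, with a median log2 ratio of 1.10 against -0.65 over all genes. *S100a8*, at 1.93-fold, lay just under the 2-fold limit. *Defb3* passed through the spinous-like cells alone, so nothing is read from the count or the median. Other S100 genes gave 0 higher and 0 lower of 8, with *S100a6* at 2904 against 5346 CPM and *S100a16* at 1124 against 615 CPM. Other antimicrobial genes gave 2 higher and 0 lower of 6, the higher ones being *Defb6* (152 against 16.2 CPM) and *Slpi* (42.5 against 20.8 CPM). Both reached 50 UMIs through the spinous-like cells alone, so nothing is read from this count. *Rnase4* stood at 149 against 78.0 CPM and *Defb1* at 143 against 71.7 CPM. Receptors gave 0 and 0 of 2, with *Bsg* at 420 against 360 CPM, and regulators 0 higher and 2 lower of 10, *Nfkbiz* and *Nfkb1*, while *Cebpb* stood at 162 against 140 CPM, *Il17rc* at 105 against 91.9 CPM and *Stat3* at 83.2 against 93.6 CPM.

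Genes of the lists with 0 UMIs in both keratinocyte states were *S100a5*, *S100b*, *S100g*, *Lyz1*, *Reg3g*, *Bpi*, *Mpo*, *Ctsg*, *Prtn3*, *Ptx3*, *Tlr4*, *Lrp2*, *Cebpe* and *Gfi1*. Among the 10 genes *Camp*, *Ngp* and *Ltf* had 0 UMIs in both states. *S100a8* and *S100a9* each had a UMI in 232 of 232 spinous-like and 117 of 117 basal-like cells.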

How the data were processed

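The authors sequenced 1 dermal and 1 epidermal 10x library, counted UMIs per gene and cell with Cell Ranger (3.0.2 in the matrix header; CASAVA and mm10 per the submitters' processing notes), and deposited raw counts of 5376 and 5258 cell barcodes (41258087 and 108768396 UMIs), before the filters of the study. The limits on cells were 200 genes or more and 10% mitochondrial UMIs or less. Each library was clustered alone (2000 variable genes without the 10 genes and related ones, 20 principal components, 20 neighbours, Leiden resolution 1) with Python 3.11.15, scanpy 1.11.5, leidenalg 0.10.2, igraph 0.11.9, scikit-learn 1.9.0, numpy 2.4.6, scipy 1.17.1, pandas 2.3.3 and matplotlib 3.10.9. Clusters were named by the list with most markers, 3 or more, detected in 25% or more of the cluster's cells and 2-fold over the remaining cells. Keratinocyte markers were tested only in clusters left unnamed, against the named ones, and keratinocyte states against the other keratinocyte-like clusters. Ties gave no name or state, and other names were dropped when more leading genes marked another type. A cluster with a median depth under 1/3 of the library's needed a marker among its 10 leading genes. The markers were listed, but these thresholds were set after clusters were seen, and differences from the study's own cell names may come from that. Scrublet's automatic calls (0 dermal, 8 epidermal) were too few to use, so doublets were kept, and the 180 and 139 highest scores were removed as an alternative.

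Counts were summed per class. Intervals are exact Poisson, Clopper-Pearson or conditional binomial at 95%, and a count of 0 was read as at most 3. With 1 library per layer no p-value was computed. Fold calls, the intervals of ratios and the depth of thinned cells were checked on simulated data. Named genes were the 10, the 3 genes of each related list with most UMIs in each group compared, list genes with 0 UMIs, and for each of the 10 with at least 200 UMIs in a library the 5 genes with the highest Pearson r of log2(CPM + 1) over clusters. The members and lists were chosen with earlier results of these data known. *Retnlg*, *Krt14*, *Krt16*, *Krt6a*, *Hp*, *Lyz2* in clusters, *C1qa*, *Pglyrp1*, *Il1b*, *Elane*, *Top2a*, *Mmp8*, *Clec4d*, *Tlr4* in neutrophils, *S100a14*, *Nfkb1*, *Slpi* in spinous-like cells, the genes that lead clusters, the keratin bins and the split by *Retnlg* were chosen after values were seen. The same holds for *Prtn3* and *Ctsg* beside the cells richest in *Ngp*. Spinous-like cells were set against basal-like cells without granular cells, since no granular class could be named. 0 sample columns were left out.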

Additional observations from a re-analysis of the deposited data

Results flagged for a closer look

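The cells left out by the limits on genes and mitochondria carried transcripts of these genes too, in data that none of the comparisons used. In the dermis 629 such cells (median 1070 UMIs) held *S100a8* at 2673 CPM (2313 UMIs) and *Ngp* at 11.6 CPM (10 UMIs), above the 1118 CPM and 7.38 CPM of the T cell-like cells that were kept. The interval of *Ngp* (5.54 to 21.3 CPM) includes the T cell level. In the epidermis 1085 such cells (median 2704 UMIs) held *S100a8* at 8198 CPM (30620 UMIs), between the T cell-like cells (3698 CPM) and the keratinocyte-like cells (14206 CPM) that were kept.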

How the results depend on the processing

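No paired analysis was possible because each layer has 1 library and the labels give no replicate numbers to pair. No direction changed under any alternative tried, and 58 of 87 planned and 3 of 5 added values for the main comparisons stayed within their counting interval or, for counts, within 1.5 times. UMIs per cell, not adjusted for depth, were not among these alternatives. The ratio of dermal neutrophil-like to keratinocyte-like *S100a8* was 4.54 with the filter of the study (200 to 5000 genes, at most 5% mitochondrial UMIs), 5.13 without the highest doublet scores, 4.72 at resolution 2, 5.03 as a mean over cells and 6.32 without the deeper neutrophil-like cluster, an alternative added after seeing the data that also gave a neutrophil share of the pair of 52.3%. For epidermal neutrophil-like cells it was 4.68 with the filter of the study, 4.18 without the richest cell of each class and 4.21 as a mean over cells. The spinous-like ratio to the other keratinocyte-like cells was 1.53 without the highest doublet scores, 1.53 with the 10 genes kept among the clustering genes and 1.82 as a mean over cells, and to basal-like cells 1.78, 1.77 and 2.15, and 2.003 without the richest cell. The follicle-like ratio was 0.543 with the filter of the study, 0.608 without the highest doublet scores, 0.625 with the 10 genes kept, 0.612 without the richest cell and 0.557 as a mean over cells. The filter of the study left no spinous-like class, so it gave no value for spinous-like cells or defensins. The monocyte share of the pair was 58.5% without the highest doublet scores. T cell-like cells with a UMI of *S100a8* were 41.2% (dermis) and 86.1% (epidermis) at 500 UMIs per cell and 82.2% and 100% at 2000. With at least 2 UMIs, *Ngp*, *Camp* and *Ltf* were found in 13%, 2.82% and 2.14% of dermal neutrophil-like cells. At 1.5-fold, 535 genes were higher and 3855 lower in spinous-like than basal-like cells, with 2 and 3 other S100 genes, 4 and 0 other antimicrobial genes, and 1 and 5 regulators. Depth limits the defensins and *S100a7a*, whose orders among states rest on under 100 UMIs each, and 1 library per layer leaves the spread between animals unknown.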
